A study of Mus musculus with 80 samples.

Results

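Dimethylation of histone H3 at lysine 9 (H3K9me2) was compared between mouse embryonic stem cells (ESCs) kept in long-term 2i (LT2i) and the same line in serum. Of the 80 samples in the series, 6 were used for this comparison, chosen by their labels as the H3K9me2 ChIP-seq libraries of these states. They are 2 antibody-bound libraries from serum, 2 from LT2i and 1 sonicated input from each medium, so the inputs have no replicate. A further 3 libraries, 2 bound and 1 input, came from cells 24 h after the change of medium and are given only beside the LT2i values. The study as a whole followed DNA methylation, RNA and H3K9me2 as ESCs pass from serum to 2i. All ChIP-seq libraries were labelled E14 (background strain), ESC and Wild-type, with no transgene or deletion in any group, and the bound libraries were made with the antibody Abcam ab1220. Serum ESCs were grown with fetal calf serum and LIF. In 2i, serum is replaced by N2B27 medium with LIF, the MEK inhibitor PD0325901 and the GSK3 inhibitor CHIR99021. The labels give neither the time spent in LT2i nor the culture from which each replicate came, and 1 cell line stands for each state.

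H3K9me2 is laid down mainly by the paired enzymes G9a (Ehmt2) and GLP (Ehmt1), and it spreads over broad domains of silent chromatin, many of them at the nuclear periphery. Demethylases of the Kdm3 and Kdm4 families, among others, remove it. UHRF1, which recruits DNMT1 for the copying of DNA methylation after replication, binds H3 methylated at lysine 9 through its Tudor domain, which makes the mark of interest in cells that lose DNA methylation. Active gene starts are usually poor in H3K9me2.

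The values are log2 reads per 2-kb bin after the authors scaled every library to the same total. A rise in one place therefore has to be matched by a fall elsewhere, and a loss of the mark from the whole genome cannot be read from these values. The study itself reports less total H3K9me2 in 2i ESCs by western blot and immunofluorescence. A rise below is therefore relative to total reads and can stand beside an absolute loss. No spike-in is described, and whether the background of the precipitation differed between the media was not tested. The serum bound libraries held 19279328 and 18546731 reads in bins and the LT2i libraries 18172129 and 15650581, with 19717998 in the serum input and 15878750 in the LT2i input. Of autosomal bins, 1.26% and 1.49% had no read in the serum libraries and 4.47% and 5.42% in the LT2i libraries, so that many of the lowest LT2i values stand at the value given to an empty bin (log2 of 0.21 and 0.42). Over 207140 autosomal 10-kb windows, Pearson's r was 0.950 between the serum replicates, 0.971 between the LT2i replicates and 0.841 to 0.888 between the media, as a description across windows of the same genome. As a check of the cell type on separate E14 libraries, all 6 pluripotency genes examined in serum RNA (Pou5f1, Sox2, Nanog, Zfp42, Klf4 and Esrrb) lay in the highest tertile of detected genes.

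In LT2i the difference between H3K9me2-rich and H3K9me2-poor chromatin was larger. Enrichment, the bound value minus the input of the same medium on the log2 scale, had an SD over 10-kb windows of 0.971 and 1.01 in the serum libraries and 1.43 and 1.44 in the LT2i libraries. At 24 h it was 1.02 in both libraries. The LT2i libraries thus stood apart from the other 4, and the mean difference from serum was 0.44, although 2 against 2 libraries cannot give a two-sided exact permutation p below 0.333, which is the value obtained.

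The lower end moved most. The 10th percentile of enrichment was -1.64 and -1.72 in serum against -2.84 and -2.87 in LT2i, and windows with an enrichment under -2 rose from 7.12% and 7.74% to 17.3% and 18.1%. The upper end moved less. The 90th percentile was 0.69 and 0.71 in serum and 0.92 and 0.94 in LT2i, and windows above an enrichment of 1 made up 1.47% and 1.39% in serum and 7.50% and 7.91% in LT2i. The median window changed little, from 0.11 and 0.13 to 0.02 and 0.03.

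**Figure D1:**
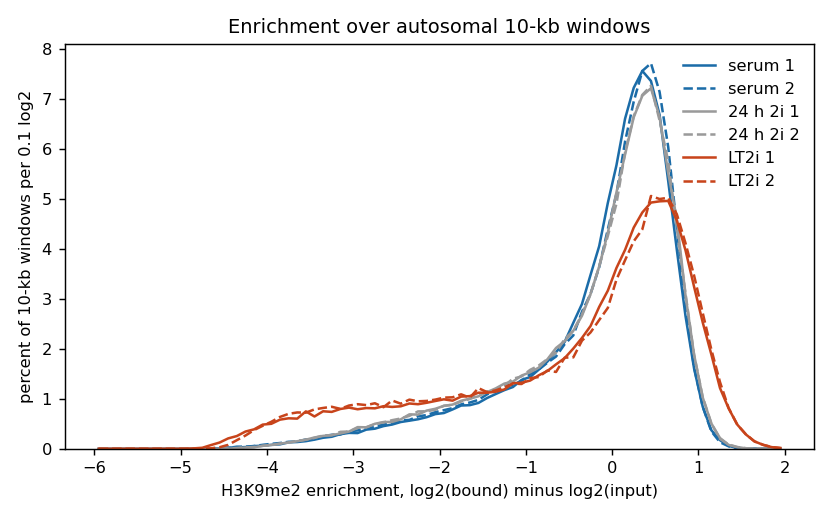
Percent of autosomal 10-kb windows (vertical axis) by H3K9me2 enrichment, log2 bound minus log2 input (horizontal axis), with 1 line for each bound library. The LT2i lines are lower at the peak and higher at both ends than the serum and 24 h lines, with 10th percentiles of -2.84 and -2.87 against -1.64 and -1.72 in serum.

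To ask where the mark was lost and kept, the 100-kb windows were divided into deciles by the enrichment of serum replicate 1, and the change was measured from serum replicate 2, which had no part in setting the classes. In the decile with the least H3K9me2 the LT2i libraries were lower by a median of -0.94 in each. Decile 2 stood at -0.73 and -0.81 and decile 3 at -0.47 and -0.56. From decile 5 upward the sign was positive, with 0.03 and 0.06 there and 0.22 and 0.20 in decile 10, the richest in the mark. Serum replicate 1 itself differed from serum replicate 2 by 0.09 in decile 1, -0.04 in decile 5 and 0.03 in decile 10. The 24 h libraries stayed between -0.05 and 0.03 in every class, and reached -0.14 in decile 2 when the serum replicates were exchanged. These comparisons share the serum libraries.

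**Figure D2:**
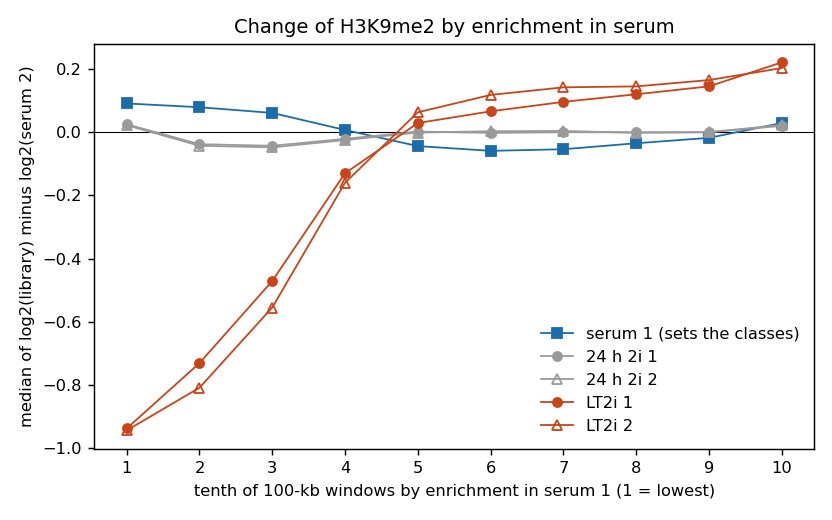
Median log2 difference from serum replicate 2 (vertical axis) for deciles of the autosomal 100-kb windows ordered by enrichment in serum replicate 1 (horizontal axis), for serum replicate 1 and each 24 h and LT2i library. The LT2i libraries run from -0.94 in the lowest decile to 0.22 and 0.20 in the highest, while the 24 h libraries lie near 0.

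Window by window, limma with Benjamini-Hochberg adjustment called 99161 of 207140 10-kb windows (47.9%) at an adjusted p under 0.05. Of these, 63666 (30.7% of all) were lower in LT2i and 35495 (17.1%) were higher. After quantile normalisation of the 4 libraries the counts were 23691 and 22057, and without the trend on mean level 18786 windows were higher. Under the deposited scaling, 35367 windows (17.1%) fell by 1 or more on the log2 scale and 1234 (0.596%) rose by that much, against 7371 and 5886 after quantile normalisation. Called windows that fell had a median enrichment of -0.57 in serum and -1.75 in LT2i, whereas those that rose went from 0.37 to 0.85. Both LT2i libraries lay below both serum libraries in 43.7% of all windows and above them in 30.0%. After 24 h, in a fit of all 6 bound libraries, 112 windows (0.0541%) were called against serum, while 79683 windows (38.5%) were called between LT2i and 24 h.

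Falls lay mainly in and near genes. Windows that overlapped a gene (104420 windows) had a median change of -0.44, with 44.4% called lower and 9.05% higher. Windows up to 50 kb from the nearest gene had a median of -0.13, and those 50 to 200 kb away 0.16. In windows more than 500 kb from any gene (11697 windows) the median was 0.23, and 3.10% were lower and 33.5% higher. The corresponding median input change rose from -0.02 in genes to 0.11 in the most distant windows, over that whole range a smaller step in the same order. Beyond 50 kb the step was not smaller, since the input change rose from 0.03 at 50 to 200 kb to 0.11 over 500 kb. Median enrichment, which takes off the input, went from 0.36 in serum to 0.49 in LT2i at 50 to 200 kb and from 0.33 to 0.45 over 500 kb. Net of input the rise was thus no larger in the most distant windows.

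Most runs of called windows were short, and the long ones were mainly lower. Adjacent called windows joined into 19825 lower runs covering 636.66 Mb and 22269 higher runs covering 354.95 Mb, with medians of 20 kb and 10 kb. Single windows made up 9285 of the lower runs and 14751 of the higher. Lower runs of 100 kb or more numbered 1288 and held 31.3% of the lower windows, against 32 such higher runs with 1.05% of the higher windows. The longest lower run reached 570 kb and the longest higher run 220 kb.

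The longest lower run lay at chr11:119530001-120100000 and overlapped Rptor, the substrate adaptor of mTORC1, along with Nptx1, Chmp6, Baiap2 and Aatk. Mean enrichment over its 57 windows was -0.94 and -1.17 in serum and -2.66 and -2.81 in LT2i, and the mean change in level was -1.84. The next, at chr2:25840001-26380000, held Sohlh1, Kcnt1, Camsap1 and Lhx3 and changed by -1.55. At chr16:10480001-11010000 the run covered Ciita, the master regulator of MHC class II genes, Clec16a, Socs1, Litaf and the protamine cluster Prm1, Prm2, Prm3 and Tnp2, which packages sperm DNA. Its enrichment went from -0.45 and -0.61 to -2.08 and -2.26. The run at chr8:125110001-125620000 with Disc1 and Sipa1l2 began near the level of input (0.00 and -0.20) and ended at -1.72 and -1.87. The last of the 5, at chr5:139830001-140300000 with Elfn1 and Mad1l1, changed by -1.66. All of these stretches hold genes.

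The longest higher runs were poor in genes and smaller in change. At chr3:130200001-130420000, within Col25a1, which encodes a transmembrane collagen, enrichment was 0.69 and 0.72 in serum and 1.27 and 1.22 in LT2i over 22 windows. The runs at chr3:139820001-139980000, chr15:94020001-94150000 and chr14:114430001-114560000 overlapped no gene of the expression table and rose by 0.59, 0.86 and 0.63. The input also rose by 0.18 in the last of these. A run at chr8:45470001-45600000 in Sorbs2, an actin-associated adaptor, rose by 0.56.

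Whole chromosomes moved in both directions. Of the 19 autosomes, 11 had lower mean H3K9me2 in both LT2i libraries than in both serum libraries, 7 higher, and on chromosome 8 the groups overlapped. Chromosome 11 showed the largest fall, with mean levels of 4.44 and 4.41 in serum and 4.23 and 4.21 in LT2i, a change of -0.20 that was -0.15 net of input. Chromosome 3 rose most, from 4.60 and 4.63 to 4.69 and 4.71. On chromosome 14 the rise of 0.07 was matched by the input, which rose by 0.08. Across the 19 autosomes the change had a Pearson's r of -0.769 and a Spearman's rho of -0.675 with genes per Mb, as a description of chromosomes that share their libraries. These signs depend on the scaling: with each library centred on its median window, 3 autosomes were lower and 13 higher.

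Over genes, the level was the mean of the bins that overlap the gene body, tested in 18349 autosomal genes with at least 3 bins. Of these, 12365 (67.4%) were called, with 11186 (61.0%) lower in LT2i and 1179 (6.43%) higher, and the median change was -0.71. A fall of 1 or more was called in 6271 bodies (34.2%) and a rise of that size in 36 (0.196%). These counts were 467 and 534 after quantile normalisation, and 375 and 3272 with each library centred on its median body. Both LT2i libraries lay below both serum libraries in 73.0% of the bodies and above them in 11.8%. Around the gene start, over 3 bins, 6669 of 22398 starts (29.8%) were called, 5630 (25.1%) lower and 1039 (4.64%) higher, with a median change of -0.42. Both LT2i libraries lay below both serum libraries at 49.6% of starts and above them at 14.4%. The count of called starts leaned on single libraries, with 2649 without serum replicate 1, 4088 without serum replicate 2, 4359 without LT2i replicate 2 and 4800 without LT2i replicate 1, and called rises fell to between 488 and 634. Without the trend on mean level, 221 starts and 560 bodies were higher. The 24 h libraries gave 0 called bodies and 0 called starts in limma on all 6 bound libraries, with 2602 and 1969 at an unadjusted p under 0.05, and a median body change of -0.05. Between LT2i and 24 h, 11992 bodies (65.4%) and 6533 starts (29.2%) were called.

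These counts are relative to total reads. Of the called bodies, 9.53% were higher under that scaling, 49.1% after quantile normalisation of the 4 libraries and 80.4% when each library was centred on its own median gene body, which moved the median change of all bodies to 0.01 and 0.30. For starts the corresponding shares were 15.6%, 44.8% and 85.0%. Centring on the median 10-kb window instead, an alternative chosen after seeing the data, moved the median body change to -0.65 and called 10402 bodies lower and 1539 higher. Centring shifts all genes by one amount and leaves their order as it was, whereas the sign can turn, so the median of each gene list is given below under the deposited scaling and, where its sign turned, under centring on gene bodies.

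The sequences at the starts of 3 genes called lower there and 1 called higher are shown, because UHRF1 reads H3K9me2 together with methylated CpGs. Each runs 5′ to 3′ on the strand of the gene, from 250 bases before to 50 after the start given by RefSeq on GRCm38.p6, with every CG in capitals. Promoters of this length were matched to 13091 of the 22398 gene starts, on symbol, chromosome and strand and with starts within 1000 bases. The letters CG read the same on both strands. Lrig1 has a dense CpG cluster, held by few promoters at that density, while the other 3 lie nearer the median of 16.
Lrig1: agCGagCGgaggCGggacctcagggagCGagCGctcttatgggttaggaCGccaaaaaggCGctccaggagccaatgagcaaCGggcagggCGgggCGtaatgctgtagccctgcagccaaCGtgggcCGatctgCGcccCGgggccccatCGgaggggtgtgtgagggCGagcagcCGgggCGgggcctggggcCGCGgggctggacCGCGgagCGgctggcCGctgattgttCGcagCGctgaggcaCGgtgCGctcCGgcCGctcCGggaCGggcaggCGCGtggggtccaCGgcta
Tfcp2l1: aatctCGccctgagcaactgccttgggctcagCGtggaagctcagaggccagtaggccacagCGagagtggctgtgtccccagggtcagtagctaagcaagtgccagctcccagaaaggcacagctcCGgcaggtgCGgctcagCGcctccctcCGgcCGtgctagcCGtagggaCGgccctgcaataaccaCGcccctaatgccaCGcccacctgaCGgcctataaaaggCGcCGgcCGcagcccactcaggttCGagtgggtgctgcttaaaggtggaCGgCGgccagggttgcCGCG
B2m: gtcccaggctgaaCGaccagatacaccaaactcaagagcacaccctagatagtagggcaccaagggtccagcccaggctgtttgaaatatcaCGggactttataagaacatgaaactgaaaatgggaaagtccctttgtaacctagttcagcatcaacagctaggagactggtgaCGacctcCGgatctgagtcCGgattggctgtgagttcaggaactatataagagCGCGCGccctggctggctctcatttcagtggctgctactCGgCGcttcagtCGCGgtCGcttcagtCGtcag
Mael: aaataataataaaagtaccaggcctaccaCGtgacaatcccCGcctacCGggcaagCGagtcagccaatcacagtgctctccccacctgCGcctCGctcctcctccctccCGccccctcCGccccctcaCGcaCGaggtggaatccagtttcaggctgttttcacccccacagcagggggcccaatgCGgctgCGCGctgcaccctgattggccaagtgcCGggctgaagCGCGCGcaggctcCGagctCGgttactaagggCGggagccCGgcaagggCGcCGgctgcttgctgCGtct
The Lrig1 sequence lies at chr6:94700096-94700395 on the minus strand and has 35 CpGs, with 10.3% of promoters holding as many or more. Around its start the serum levels were 2.87 and 2.85 and the LT2i levels 1.04 and 1.25, a change of -1.72 (limma adjusted p = 0.0034). Tfcp2l1, at chr1:118627695-118627994 on the plus strand, has 21 CpGs (38.5% of promoters hold as many). Its start went from 2.52 and 2.93 to 0.26 and 1.28, a change of -1.95 (limma adjusted p = 0.000913). B2m, at chr2:122147437-122147736 on the plus strand, has 14 CpGs (55.8%) and went from 3.75 and 3.67 to 2.23 and 1.99. Mael, at chr1:166238695-166238994 on the minus strand, has 24 CpGs (30.8%) and rose from 4.82 and 4.52 to 5.52 and 5.59, a change of 0.89 (limma adjusted p = 8.73e-05). The groups did not overlap at any of the 4 starts, which were chosen for their change. Of all starts, 49.6% were lower and 14.4% higher without overlap. The lower LT2i value at Tfcp2l1, 0.26, lies close to that of an empty bin in its library (0.21).

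Among the bodies of at least 10 bins named here, changes reached -2.80, a fall to a level 6.95-fold lower than in serum. Lrig1, a transmembrane inhibitor of growth factor receptors, had body levels of 4.40 and 4.20 in serum and 1.67 and 1.35 in LT2i, a change of -2.80 (SE 0.181, limma adjusted p = 0.000999). At 24 h its libraries stood at 3.74 and 3.68. The loss ran along the whole gene, with 46 of its 49 bins lower in both LT2i libraries than in both serum libraries. Input over the same bins was 4.69 in serum and 4.71 in LT2i. LT2i therefore stood well below serum at Lrig1 with no difference of that size in the input.

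Tfcp2l1 encodes a transcription factor of the naive pluripotency network. Its body levels were 4.00 and 3.98 in serum and 1.51 and 1.25 in LT2i, a change of -2.61 (SE 0.173, limma adjusted p = 0.000999), with 3.85 and 3.74 at 24 h. All but 1 of its 30 bins fell without overlap (29 bins). H2afy, which encodes the histone variant macroH2A1, fell from 4.21 and 3.99 to 1.47 and 1.31, a change of -2.71, although its start did not pass (limma adjusted p = 0.418).

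The other bodies among the 10 largest falls, taken from bodies of at least 10 bins, lay close behind. Oat, which encodes the mitochondrial ornithine aminotransferase and lies inside the wider model of Fgfr2, changed by -2.80. Sccpdh changed by -2.69, Smtnl2 by -2.63 and Plekhh1 by -2.62. Mgat1, which starts the formation of complex N-glycans, changed by -2.57, Fam53a by -2.56 and the ubiquitin ligase gene Rnf213 by -2.54. The 10 were chosen from called bodies whose groups do not overlap, and each had a limma adjusted p of 0.000999. None changed sign under quantile normalisation. Either centring raises all changes by one amount, which is too small to turn falls of this size. Their enrichment in serum lay between -1.39 and -0.39, so these were not the genes richest in the mark to begin with.

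In separate RNA-seq libraries of E14 cells, the transcripts of several of these genes were higher after 72 h in 2i than in serum. The log2 changes in RNA were 2.56 for Plekhh1, 2.39 for H2afy, 2.01 for Smtnl2, 1.68 for Tfcp2l1 and 1.63 for Lrig1, all past the limma threshold. Mgat1 did not pass (0.36, limma adjusted p = 0.186). No RNA was measured in LT2i in the libraries used here, so the times differ.

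Among bodies of at least 10 bins, the 9 largest rises after that of Aida ranged from 0.71 to 0.91. Mios, a subunit of the GATOR2 complex that signals amino acid supply to mTORC1, went from 3.41 and 3.61 to 4.58 and 4.26, a change of 0.91 (SE 0.149, limma adjusted p = 0.00291). Prpf39, a splicing factor gene, went from 2.44 and 2.26 to 3.21 and 3.27. Lrrn1, a neuronal leucine-rich repeat protein gene that was already rich in H3K9me2, rose from 5.16 and 5.24 to 6.00 and 6.03, with 18 of its 22 bins higher without overlap. Its RNA at 72 h was lower, with a change of -1.58. Slc38a4, an imprinted amino acid transporter gene, rose from 3.80 and 3.91 to 4.69 and 4.44. Cyp2j5 (0.76), Shcbp1 (0.72), Adam28 (0.72) and Casp4 (0.72) completed the set with Ltbp4 (0.86). In Ltbp4, 59.2% of the net change lay in 1 bin, and the mean of its log2 values changed by 0.14.

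Aida headed the rises with a change of 1.68, yet this value rests on a single bin at chr1:183298001-183300000. There the linear level was 100.4 and 117.0 scaled reads in serum and 626.2 and 608.6 in LT2i, and the inputs were also high, at 137.8 and 159.4 against a median bin of 23.5. When the 92 autosomal bins with an input over 3 times the median were left out, a step added after seeing the data, the Aida body changed by -0.69 (limma adjusted p = 0.0108). The mean of its log2 values changed by -0.47. Aida is included in the 1179 bodies called higher and the 36 higher by 1 or more, counts that became 1177 and 34 without these bins.

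**Figure D3:**
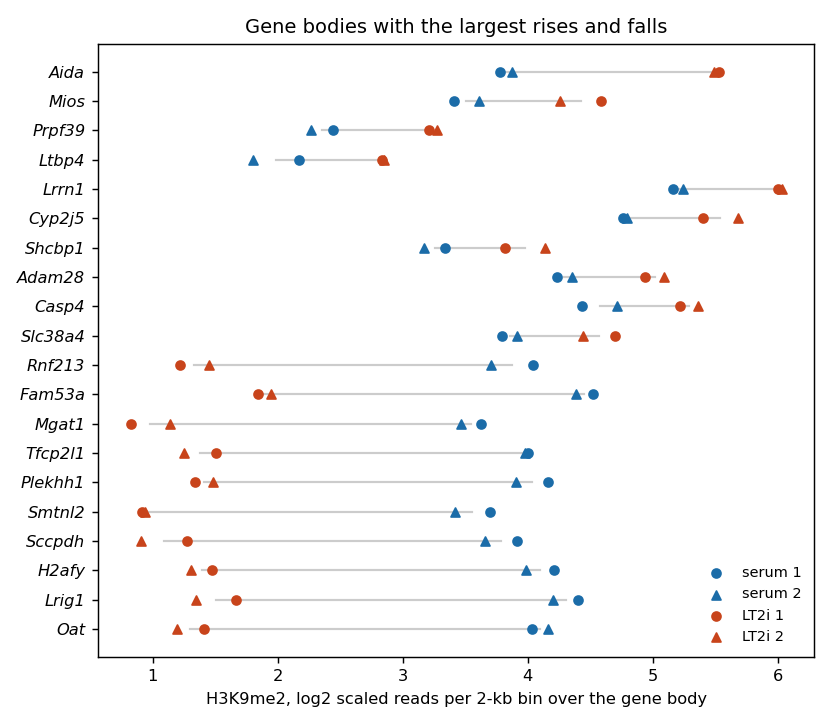
H3K9me2 level, log2 scaled reads per 2-kb bin averaged over the gene body (horizontal axis), for the 10 bodies with the largest rises and the 10 with the largest falls, with 1 point for each of the 2 serum and 2 LT2i libraries and a grey line between the group means. The bodies were chosen among called bodies of at least 10 bins whose groups do not overlap. Models named Gm and a number or ending in Rik were left out. The falls reach -2.80, and the rise of Aida changes to -0.69 without bins of high input.

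The median fall was largest in bodies of intermediate serum enrichment. Bodies with a serum enrichment between -2 and -1 had a median change of -1.15, with 84.4% called lower. Bodies under -3 changed by a median of -0.46, with a median enrichment of -3.44 in serum and -3.86 in LT2i. The value given to an empty bin limits the falls that can be seen there. The loss at the poorest bodies therefore cannot be ranked against the others. Bodies between 0 and 0.5 changed by -0.06, and those over 0.5, 992 genes, by 0.08. Since serum levels set these classes and also enter the change, the values are a description.

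Expression in serum followed a similar order. Bodies of genes without RNA reads in serum (3355 bodies) had a median change of -0.21, those in the lowest tertile of detected genes -0.53, the middle tertile -0.90 and the highest tertile -0.88. Starting enrichment differed between these classes, at 0.12, -0.29, -1.18 and -2.21. By gene length, bodies of 20 to 50 kb changed by a median of -0.84, those of 100 to 200 kb by -0.54 and those over 500 kb (186 bodies) by 0.10. Serum enrichment also differed between these length classes, at -1.10, -0.19 and 0.38, and its part in the differences was not tested. These medians rank the classes, and the sign at the upper ends turns with the scaling.

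Genes whose RNA rose in 2i and genes whose RNA fell differed in H3K9me2. Bodies of genes whose RNA was higher at 72 h by 1 or more (1997 bodies) had a median change of -1.02, with 78.9% called lower. Where RNA was lower (1665 bodies) the median was -0.50 and 51.2% were lower. Genes tested for RNA in neither class stood at -0.79. The 2 classes began at near levels of enrichment, -0.80 and -0.90.

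The order was the same within classes of like serum enrichment. Between -2 and -1, bodies with higher RNA changed by -1.39 and those with lower RNA by -0.91. Between 0 and 0.5 the medians were -0.44 and 0.08. Between -0.5 and 0 they were -0.91 and -0.35. Only below -3 did they meet, at -0.39 and -0.37. The order was also the same among genes of like expression in serum, with -1.22 against -0.75 in the highest tertile and -0.87 against -0.15 in the lowest. The RNA libraries are separate from the ChIP-seq libraries, and no test was run across genes, which are not replicates.

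**Figure D4:**
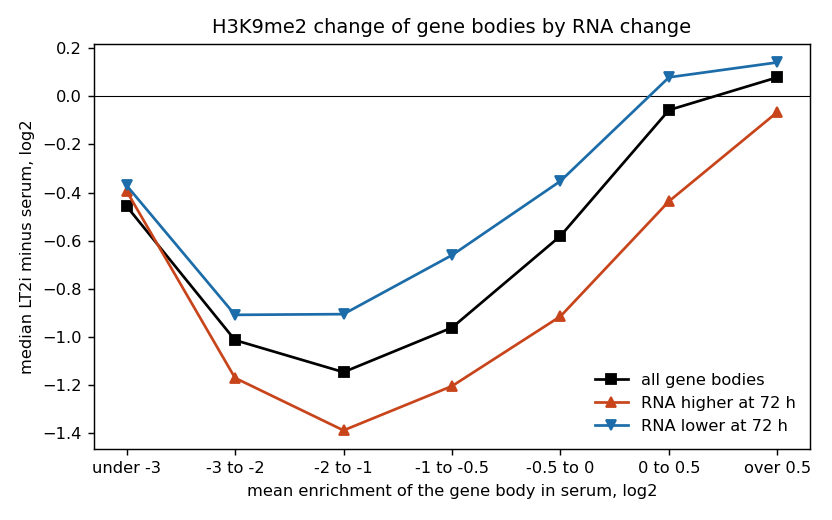
Median H3K9me2 change of gene bodies, LT2i minus serum in log2 (vertical axis), by class of mean serum enrichment (horizontal axis), for all bodies and for those of genes whose RNA was higher or lower by 1 or more after 72 h in 2i. Bodies with higher RNA lie below those with lower RNA in every class, by the least below -3 (-0.39 and -0.37) and by more between -2 and -1 (-1.39 and -0.91).

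Around the starts of genes in the middle and highest tertiles of expression, the mean signal changed less at the start itself than 10 kb to either side. For genes in the highest tertile of expression, mean bound signal against mean input was -2.78 at the start in serum and -2.64 in LT2i, whereas 10 kb into the gene it went from -1.68 to -2.33. In the middle tertile the values were -2.22 and -2.29 at the start and -0.97 and -1.60 at 10 kb. In the lowest tertile the mean signal changed by -0.35 at the start, -0.32 at 10 kb before it, -0.43 at 4 kb after it and -0.27 at 50 kb after it. Genes without RNA reads showed a shallow profile in both media, at -0.10 and -0.18 at the start. For highly expressed genes the mean bound signal changed by 0.05 in the start bin, by -0.27 in the bin before it and by -0.39 in the bin after it. These are means over genes, and the median change of the same starts over 3 bins was -0.38, with a median enrichment of -2.89 in serum and -3.44 in LT2i. The value of an empty bin, 0.14 and 0.19 in serum and 0.21 and 0.42 in LT2i, limits the falls that can be seen at such starts. Of all starts with a serum enrichment under -3, 4.03% were called lower, against 39.6% between -2 and -1. The small change at active starts therefore cannot be ranked against that at 10 kb.

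**Figure D5:**
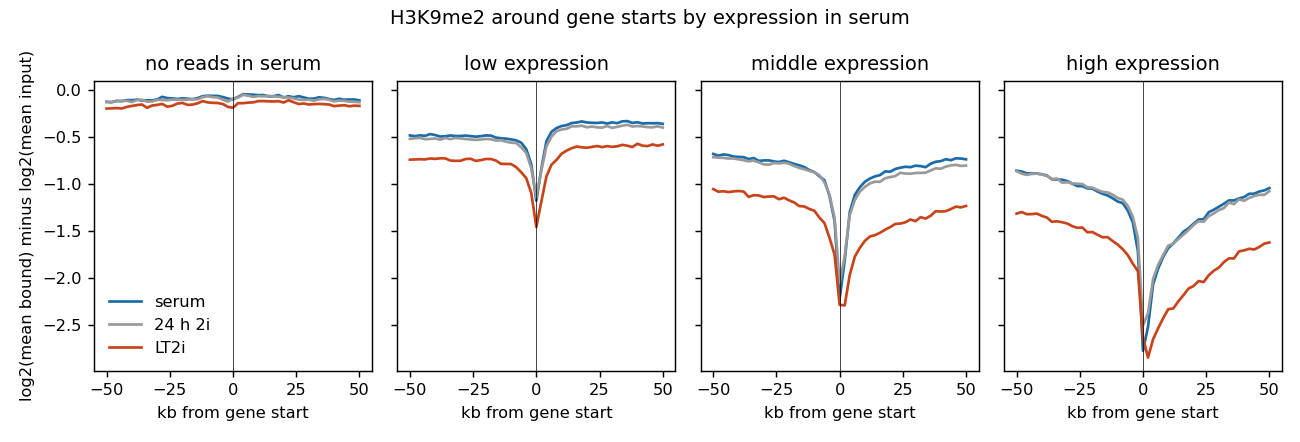
Mean H3K9me2 enrichment, log2 of mean bound minus log2 of mean input (vertical axis), from 50 kb before to 50 kb after gene starts (horizontal axis), in 4 panels by serum expression and with lines for serum, 24 h of 2i and LT2i. In highly expressed genes the lines of the mean for serum and LT2i come close at the start (-2.78 and -2.64) and separate 10 kb into the gene (-1.68 and -2.33). The value of an empty bin limits the falls that can be seen at the start.

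The genes that write, remove and read H3K9me2 were examined for the mark on their own bodies. Among H3K9 methyltransferases and cofactors, 9 of the 12 bodies tested were lower (beside 61.0% of all bodies), 0 were higher (beside 6.43%), and the median change was -0.88, which became 0.14 after centring on gene bodies. That centring called 2 higher and 2 lower (beside 39% and 9.54% of all bodies). Quantile normalisation called 0 and 1 (beside 11.6% and 12.1%). Wiz, a zinc finger partner of G9a and GLP, went from 3.63 and 3.38 to 2.15 and 1.93. Prdm2 changed by -1.46 over 49 bins. Ehmt1 (GLP) went from 3.70 and 3.61 to 2.99 and 2.61, a change of -0.86 (limma adjusted p = 0.0059) that turned to 0.16 after centring on gene bodies and 0.12 after quantile normalisation. Ehmt2 (G9a) was already near empty in serum, at 1.35 and 1.04, and its change of -0.72 did not pass (limma adjusted p = 0.0586) and turned to 0.29 after that centring. The RNA of both was lower at 72 h, by -1.41 and -1.11.

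Of the 9 H3K9 demethylase bodies tested of 10 listed, 6 were lower (66.7%, beside 61.0% of all bodies) and 0 higher, with a median change of -1.32 that was -0.30 after centring on gene bodies, where 3 were higher and 2 lower. After quantile normalisation 2 were higher and 2 lower. Of all bodies, 39% were higher and 9.54% lower after that centring, and 11.6% and 12.1% after quantile normalisation. Kdm4b went from 3.63 and 3.20 to 1.16 and 0.93, a change of -2.37, and Phf2 from 4.69 and 4.35 to 2.65 and 2.72. Neither RNA passed at 72 h, with changes of -0.17 and 0.20.

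Among DNA methylation and oxidation genes, 10 of 11 bodies were lower (90.9%, beside 61.0% of all bodies) and 0 higher, with a median of -0.96, or 0.06 after centring on gene bodies. That centring called 2 higher and 1 lower (beside 39% and 9.54% of all bodies). Quantile normalisation called 1 and 1 (beside 11.6% and 12.1%). Dnmt1 went from 2.74 and 2.57 to 0.99 and 0.99, a change of -1.66 (SE 0.202, limma adjusted p = 0.00129). Uhrf1 went from 2.23 and 2.05 to 0.68 and 1.07. Dnmt3a went from 3.84 and 3.47 to 2.65 and 2.56, while its RNA was lower at 72 h by -2.38. Dnmt3b fell from 3.16 and 3.06 to 2.65 and 2.10, a change of -0.74 (limma adjusted p = 0.0253), but this sign was positive after centring on gene bodies (0.28) and quantile normalisation (0.36), and the call was lost without serum replicate 1 or LT2i replicate 2. The body of Dnmt3l, which encodes the inactive partner of the de novo enzymes and overlaps Aire, did not pass at -0.41 (limma adjusted p = 0.0807), though it did without LT2i replicate 1 (-0.59, limma adjusted p = 0.0329). At its start the LT2i replicates differed widely, at 2.95 and 0.57 against 3.66 and 3.89 in serum.

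Genes of the naive state and of the formative and primed state were compared next. For the naive list, 9 of the 17 bodies tested of 20 were lower (52.9%) and 0 higher, with a median of -0.94 (0.08 after centring on gene bodies). Besides Tfcp2l1, Prdm14, which encodes a repressor of de novo methylation genes, went from 3.54 and 3.39 to 1.03 and 0.98, a change of -2.46 across 8 bins. Its RNA was higher at 72 h by 2.37. For the formative and primed list, 13 of 20 bodies were lower (65.0%) and 0 higher, with a median of -0.77 (0.24 after centring on gene bodies). Mixl1 changed by -1.70 and Lefty2 by -1.60. The shares of 52.9% and 65.0% stand beside the 61.0% of all bodies called lower. Centring on gene bodies called 2 naive bodies higher and 4 lower, and 3 and 0 of the other list (beside 39% and 9.54% of all bodies). Quantile normalisation called 0 naive bodies higher and 3 lower, and 1 and 1 of the other list (beside 11.6% and 12.1%).

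Of 25 germ line gene bodies, 13 were lower (52.0%, beside 61.0% of all bodies) and 4 higher (16.0%, beside 6.43%), with a median of -0.32 (0.69 after centring on gene bodies). That centring called 19 higher and 0 lower (beside 39% and 9.54% of all bodies), and quantile normalisation 8 and 1 (beside 11.6% and 12.1%). Stra8, the retinoic acid response gene needed for entry into meiosis, went from 3.62 and 3.21 to 1.28 and 2.00, a change of -1.78, and its RNA was higher at 72 h by 4.71. Stag3, a meiotic cohesin subunit gene, changed by -1.25. In the other direction, Mael, a factor of the piRNA pathway, rose from 4.69 and 4.78 to 5.37 and 5.40, with 13 of its 16 bins higher without overlap. Sycp3, a component of the synaptonemal complex, went from 2.50 and 2.81 to 3.29 and 3.38, although 58.1% of its net change lay in 1 of 8 bins and the call was lost without serum replicate 1 (limma adjusted p = 0.0606), where 2 germ line bodies were higher. Its RNA rose by 1.63 at 72 h.

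Imprinted genes, which are expressed from 1 parental copy, had calls in both directions under the deposited scaling. Of 21 bodies tested of the 31 listed, 5 were lower (23.8%, beside 61.0% of all bodies) and 4 were higher (beside 6.43% of all bodies), with a median of 0.05 that was 1.06 after centring on gene bodies and between -0.03 and 0.16 when single libraries were left out. After quantile normalisation 13 were higher and 0 lower (beside 11.6% and 12.1% of all bodies). After centring on gene bodies the counts were 21 and 0 (beside 39% and 9.54%), and without the trend on mean level 2 and 3 (beside 3.05% and 58.2%). Without serum replicate 1 only 1 of these bodies was called lower, and without LT2i replicate 2 there were 2. Peg10, a retrotransposon-derived gene expressed from the paternal copy, rose from 3.36 and 3.41 to 4.02 and 4.00 in its body and from 1.52 and 2.57 to 3.48 and 3.45 around its start. Its RNA was lower at 72 h by -2.45. At 24 h its body stood at 3.99 and 4.03, already near the LT2i level. Igf2r changed by -0.72 and the overlapping antisense transcript Airn by -0.49, 2 values that share bins and that became 0.30 and 0.52 after centring on gene bodies. The input over Airn changed by -0.18, and its enrichment went from -0.22 to -0.53. Airn was not called without serum replicate 1 (limma adjusted p = 0.0503).

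Among neuronal adhesion and synapse genes, many of them very long, 0 of 26 bodies were lower (beside 61.0% of all bodies) and 5 were higher (19.2%, beside 6.43%) in limma, with a median of 0.12 and a range of -0.13 to 0.33. A fit without the trend on mean level called 0 of them, and leaving out a library left 1 (serum replicate 1 or LT2i replicate 2) or 3 (serum replicate 2 or LT2i replicate 1). The count was 9 with the replicate block, 8 in a fit of all 6 bound libraries and 3 after quantile normalisation. It was 11 after centring on the median window and 26 after centring on gene bodies. Of all bodies, 11.6% were higher after quantile normalisation, 8.39% after centring on the median window and 39% after centring on gene bodies. Both LT2i libraries lay above both serum libraries in 16 of the 26 listed bodies (beside 11.8% of all bodies). The median serum enrichment of the list was 0.46. Of all bodies with a serum enrichment between 0 and 0.5, 18.6% were called higher and 33.1% lower. Of those over 0.5, 30.4% were higher and 19.1% lower. The 19.2% higher in the list lay between these 2 shares of higher bodies, whereas its 0 lower lay below both shares of lower bodies. Opcml, a cell adhesion gene of 550 bins, went from 5.17 and 5.22 to 5.51 and 5.53. Macrod2, which is not an adhesion gene but encodes a hydrolase of ADP-ribose, went from 5.01 and 5.08 to 5.30 and 5.37 over 920 bins, a call that was lost without serum replicate 1 (limma adjusted p = 0.0634) and without LT2i replicate 2 (limma adjusted p = 0.0747). The median input change of the list was 0.09, and net of input the median was 0.06 and 2 bodies were called higher and 1 lower.

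Sensory receptor families lie in large clusters that are silent outside sensory neurons. Of 1103 autosomal olfactory receptor genes, 89 had enough bins for a body test, of which 33 were higher (37.1%) and 11 lower (12.4%), with a median of 0.21, beside 6.43% and 61.0% of all bodies. The median serum enrichment of these olfactory bodies was 0.17. Among all bodies with a serum enrichment between 0 and 0.5, 18.6% were higher and 33.1% lower. Among bodies of genes without RNA reads in serum, 16.3% were higher and 41.7% lower. Net of input the olfactory median was 0.10 with 20 bodies lower. Without the trend on mean level 20 were higher and 6 lower (beside 3.05% and 58.2% of all bodies). Around the start, 942 could be tested, and 202 were higher and 48 lower, beside 4.64% and 25.1% of all starts, with a median of 0.21 against -0.42 for all starts. Among starts of genes without RNA reads in serum, 9.01% were higher and 28.0% lower. Olfr860 rose from 4.23 and 4.54 to 5.49 and 5.46, and Olfr175-ps1 changed by 0.94. Olfr70 and its neighbour Olfr71 on chromosome 4 fell, by -1.54 and -1.68.

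Among vomeronasal receptor genes, 64 of 319 autosomal members could be tested over the body, and 27 were higher (42.2%) and 1 lower, with a median of 0.32. Of all bodies, 6.43% were called higher and 61.0% lower. The median serum enrichment of the vomeronasal bodies was 0.10. Among all bodies between 0 and 0.5, 18.6% were higher and 33.1% lower. Around the start, 147 members could be tested, and 19 were higher and 3 lower, with a median of 0.14. Of all starts, 4.64% were higher and 25.1% lower. Without serum replicate 1 the count of vomeronasal rises was 17, without LT2i replicate 2 it was 16, and without the trend on mean level it was 14. Net of input their median was 0.23, with 24 higher and 4 lower. Vmn2r17 rose by 0.71 and Vmn2r70 by 0.73. The 1 called lower, Vmn1r32, changed by -0.42 while its input changed by -0.22, with an enrichment of -0.42 in serum and -0.62 in LT2i. It was not called without serum replicate 1, serum replicate 2 or LT2i replicate 2, and stood at 0.59 after centring on gene bodies. The sources used here do not say how reads that fit several near-identical copies were treated, so values of single receptors are uncertain. Under quantile normalisation the medians of the olfactory and vomeronasal bodies were 0.35 and 0.63. Both centrings raised every change by one amount, so they could not turn the sign of these medians.

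Zinc finger genes named Zfp, many of which encode repressors of transposable elements, had a median change whose sign depends on the scaling. Of 311 bodies tested among 359 autosomal members, 164 were lower (52.7%, beside 61.0% of all bodies) and 15 higher (4.82%, beside 6.43%), with a median of -0.59 (0.42 after centring on gene bodies). That centring called 128 higher and 19 lower (beside 39% and 9.54% of all bodies). Quantile normalisation called 78 and 6 (beside 11.6% and 12.1%). Zfp750 changed by -2.0 and Zfp14 by -1.92. Zfp784 rose by 1.15 and Zfp958 by 0.80. Of 13 housekeeping bodies tested among 15, 5 were lower (38.5%, beside 61.0% of all bodies) and 0 higher, with a median of -0.44 (0.57 after centring on gene bodies), including B2m, the light chain of MHC class I, at -1.37 and Ywhaz at -1.02. The 15 listed include Pgk2, which is not a housekeeping gene. Centring on gene bodies called 2 housekeeping bodies higher and 0 lower (beside 39% and 9.54% of all bodies), and quantile normalisation 1 and 0 (beside 11.6% and 12.1%). Without LT2i replicate 2, 2 housekeeping bodies were lower.

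Hox clusters and ribosomal protein genes had little H3K9me2 at the median in both media. Serum enrichment had a median of -3.50 over the 32 Hox bodies tested of 41, of which 9 were lower (28.1%, beside 61.0% of all bodies) and 1 higher, with a median change of -0.47 (0.55 after centring on gene bodies). That centring called 10 higher and 0 lower (beside 39% and 9.54% of all bodies), and quantile normalisation 4 and 0 (beside 11.6% and 12.1%). Without the trend on mean level 3 were higher and 14 lower (beside 3.05% and 58.2% of all bodies), and net of input the median was -0.26. Hoxb7 changed by -1.46, with 75.5% of the net change in 1 bin, and Hoxc13 by -1.21. Hoxb4 was higher by 0.95, from levels of 0.19 and 0.76, close to those of empty bins, and the call was lost without serum replicate 1 and without either LT2i replicate. Of 40 ribosomal protein bodies tested among 73 on autosomes, 10 were lower (beside 61.0% of all bodies) and 1 higher, with a median of -0.24 (0.77 after centring on gene bodies). That centring called 12 of them higher and 0 lower (beside 39% and 9.54% of all bodies), and quantile normalisation 5 and 0 (beside 11.6% and 12.1%). Rpl35 changed by -1.63, Rps28 by -1.36 and Rpl39l by 0.56, the last from serum levels of 4.17 and 4.57 and an enrichment of -0.02, against a list median of -3.46. Its input rose by 0.37, and its LT2i enrichment was 0.17. Without LT2i replicate 1, 4 ribosomal protein bodies were lower, and Rpl39l was not called without serum replicate 1 or LT2i replicate 2. Hox bodies called lower numbered 5 without serum replicate 1. Only 4 of 67 histone cluster bodies could be tested, with a median of 0.00 (1.01 after centring on gene bodies), and of these Hist1h2bc was lower, at -0.66, a call that stood without serum replicate 1 but not without any of the other 3 libraries, and a sign that turned to 0.36 after centring on gene bodies.

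Gene starts were also grouped by the CpG content of the promoter. Starts with 5 to 9 CpGs in 300 bases (1744 starts) had a median change of -0.62 and 38.7% called lower, the highest share of the 5 classes. Starts with 0 to 4 CpGs (3016) changed by -0.15, and 10.1% were higher. Those with 30 or more (2308) had a serum enrichment of -2.81 and changed by -0.44, with 16.3% lower. The class with 0 to 4 CpGs was itself mixed. Its 2038 starts of genes without RNA reads stood at 0.01 and its 729 starts in the lowest tertile of expression at -0.67.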

How the data were processed

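Bound and input DNA of crosslinked, sonicated ESCs was sequenced after library preparation with the MicroPlex kit. In the deposited table, 2-kb bins carry log2 values of reads, each library multiplied up to match the deepest of the 9, and an empty bin counts as 0.9 reads. Undoing the scaling gave whole numbers for 100.0% of values within 2% of the count, a margin that high counts meet in any case. The submitters' processing notes list Bismark 0.12.3, Bowtie2, TopHat2 2.0.11, Trim Galore 0.3.5 and the builds GRCm38 and NCBIM37 without roles; the aligner of the ChIP-seq reads was not stated in the sources used here. Coordinates are read as GRCm38, since 99.51% of 20677 matched gene symbols overlap their RefSeq GRCm38.p6 position. Every bin listed has an input value of 3 or more, and 81.0% of possible autosomal bins are present. The X chromosome was left out.

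Bins were returned to the linear scale, averaged over 10-kb windows (3 of 5 bins or more), gene bodies (3 bins or more) or gene starts (3 bins, 2 or more present), and put on the log2 scale again. Features with a mean input over 3 times the autosomal median, or below it by more than the same factor, were left out (14 windows, 6 bodies and 9 starts). LT2i and serum were compared with limma 3.58.1 in R 4.3.3, with a trend on mean level and Benjamini-Hochberg adjustment over all features at 0.05. Each fit had 2 residual degrees of freedom. The prior degrees of freedom were 43.5 for windows, 4.12 for bodies and infinite for starts, so that the spread of a single start between replicates does not enter its p-value. Other steps used Python 3.11.15. The labels do not say that replicates came from separate cultures, so p-values measure the spread between these libraries, which may be technical. In reads per window, replicates differed by more than sampling noise (chi-square per degree of freedom of 1.26 in serum and 1.15 in LT2i), and each was counted as 1 sample. The fit was tested on simulated data in which few features changed, as many up as down. That setting differs from these data, so it does not bear on the counts above.

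RNA classes come from the authors' log2 expression values of 12 other E14 libraries (limma, 19814 genes tested, a change of 1 or more at 72 h). The members and gene lists were chosen with earlier results of these data known. Named genes are the 10 largest rises and falls among called bodies of 10 or more bins with no overlap between groups (leaving out models named Gm and a number or ending in Rik), up to 2 called members of each list in each direction, and 8 fixed genes (Ehmt1, Ehmt2, Uhrf1, Dnmt1, Dnmt3a, Dnmt3b, Dnmt3l and Prdm14). The 5 longest runs in each direction are also named. Listed symbols absent from the table are Kdm7a, Mirg, Kcnq1ot1, Peg13, Rian, Tenm3 and Tenm4. The alternatives were other scalings, input subtraction, window sizes, filters, a replicate block and the removal of single libraries.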

Additional observations from a re-analysis of the deposited data

How the results depend on the processing

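The difference in the spread of enrichment lay between 0.41 and 0.46 with bound libraries alone, 100-kb windows and no input filter. Quantile normalisation, which forces equal distributions, left 45748 called windows (22057 higher, 23691 lower), 4353 bodies (2137 higher, 2216 lower) and 1883 starts (843 higher, 1040 lower). Centring each library on its own median feature gave 7159 higher and 1750 lower bodies, and 6260 higher and 1106 lower starts. Centring on the median window gave 3 autosomes lower and 13 higher, with chromosome 11 at -0.136 and chromosome 3 at 0.155. Without the trend, 18786 windows, 560 bodies and 221 starts were higher, and with the mean of log2 values 778 bodies. Of called windows, 35.8% were higher with the trend and 23.9% without, and of called starts 15.6% and 4.76%. Single 2-kb bins were called in 11.1% (3.24% higher, 7.90% lower), and 29.4% of 50-kb windows were higher.

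Leaving out single libraries gave 68569 to 88933 called windows (24616 to 30213 higher, 43953 to 59523 lower), 10289 to 11360 bodies (786 to 909 higher, 9423 to 10451 lower) and 2649 to 4800 starts (488 to 634 higher, 2161 to 4166 lower). In these fits the lone library of a group is assumed to vary like the other group. The replicate numbers gave only 2 pairs, whose deviations correlated at 0.0943 over windows and 0.07 over bodies, so they do not establish a pairing. With the replicate block, 108156 windows, 12744 bodies and 6924 starts were called, and Hoxb4 alone among the named genes lost its call.

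Decile 1 stood at -1.06 and decile 10 at 0.24 when serum replicate 2 set the classes, and at -0.92 and 0.16 with classes from the bound library alone. Net of input, chromosome 11 was at -0.153 and body medians were -0.46, -0.85 and -0.81 in the low, middle and high expression tertiles, and -0.93 and -0.41 for higher and lower RNA. Signs turned for Aida with the mean of log2 values (-0.47) and without bins of high input (-0.69), an alternative chosen after seeing the data. They turned after centring on gene bodies for Airn (0.52), Igf2r (0.30), Dnmt3b (0.28), Dnmt3l (0.61), Ehmt1 (0.16), Ehmt2 (0.29), Hist1h2bc (0.36) and Vmn1r32 (0.59), and after quantile normalisation for Dnmt3b (0.36), Dnmt3l (0.61), Ehmt1 (0.12), Hist1h2bc (0.48) and Vmn1r32 (0.46). Over all combinations of a named gene and an alternative, 864 kept direction and call, 64 lost the call, 2 gained one and 15 turned. The cause of these differences was not tested. Depth limits the lowest values, since an LT2i bin without reads is set to a fixed level and larger falls there cannot be seen.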
